A study of Homo sapiens with 2 samples.

Results

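The barcodes described here carried few transcripts: at least 500 detected genes, at most 20% of unique molecular identifiers (UMIs, 1 per captured transcript) from mitochondrial genes, and fewer than 10000 UMIs in total. They are called shallow, and the barcodes of the same library that met the other limits with 10000 or more UMIs are called deep. There were 1470 shallow barcodes among the 4898 barcodes deposited, 1065 in the untreated library and 405 in the treated one. The deep barcodes numbered 1474 and 1009. Shallow is a range of depth set by the rule, not a cell type, and no cell type name was given to it.

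The libraries came from colon organoids grown from 1383D6, an established line of human induced pluripotent stem cells. CNT was untreated, and 3CK received 3 inflammatory cytokines, IFN-γ, TNF-α and IL-1β, over 8 days. Both groups had the same origin, culture in basement membrane gel and colonic differentiation. The organoids were dissociated and their cells barcoded in droplets by the 3′ v3.1 chemistry of 10x Genomics. About 8300 cells were loaded for each group, which gave 1 library per group. With 1 library per group there was no test between conditions, no spread between replicates could be measured, and every interval given is a 95% interval that covers counting error only.

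In droplet sequencing a barcode labels the transcripts of 1 droplet, which may hold an intact cell, a damaged cell or nucleus, or only RNA that was free in the suspension. Free RNA reaches every droplet in about the same mixture. Cells that lose their membrane lose cytoplasmic RNA and keep nuclear and mitochondrial RNA for longer, so RNAs such as MALAT1, NEAT1 and the mitochondrial transcripts are commonly read beside depth. Colon epithelium exposed to IFN-γ makes chemokines such as CXCL10, the tryptophan-degrading enzyme IDO1 and the antigen presentation machinery, which gives a set of transcripts with a low background in untreated cells.

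Shallow barcodes made up 41.9% of the 2539 CNT barcodes kept by the gene and mitochondrial limits (exact binomial interval 40.0 to 43.9%) and 28.6% of the 1414 kept in 3CK (26.3 to 31.1%). The share was lower in 3CK by 13.3 percentage points (interval of the difference -16.3 to -10.2). The deposited barcodes began at 649 UMIs in CNT and at 928 in 3CK, so these shares do not cover the same range of depth. The shallow barcodes held few of the transcripts: 1900152 UMIs in CNT and 1089548 in 3CK, which were 1.85% and 1.17% of the UMIs of all kept barcodes. The median shallow barcode had 987 UMIs and 704 genes in CNT and 1721 UMIs and 1044 genes in 3CK, against 63065 UMIs and 8039 genes and 90846 UMIs and 8843 genes in the deep barcodes. These depths follow from the rule and are given as a description.

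The shallow barcodes were themselves unevenly deep. In CNT 829 had fewer than 2000 UMIs and 236 had 2000 to 10000, and in 3CK these numbers were 234 and 171. Here and below a range includes its lower and not its upper end. The lowest barcode had 649 UMIs in CNT and 928 in 3CK. Under 1000 UMIs lay 546 of the CNT shallow barcodes and 35 of those in 3CK. The part of this range in the lower shallow share of 3CK was not tested. No barcode sequence was shared by the libraries. The gene minimum lay inside the CNT distribution, where 69 barcodes had 450 to 500 genes and 201 had 500 to 550, and 3CK had 0 barcodes on either side. The UMI limit lay in a sparse range, with 13 CNT barcodes at 9000 to 10000 UMIs and 13 at 10000 to 11000, and 7 and 12 in 3CK. The share of shallow barcodes therefore moved with the gene minimum: with at least 1000 genes it was 17.2% in CNT and 17.8% in 3CK, so that CNT was no longer the higher of the pair.

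**Figure D1:**
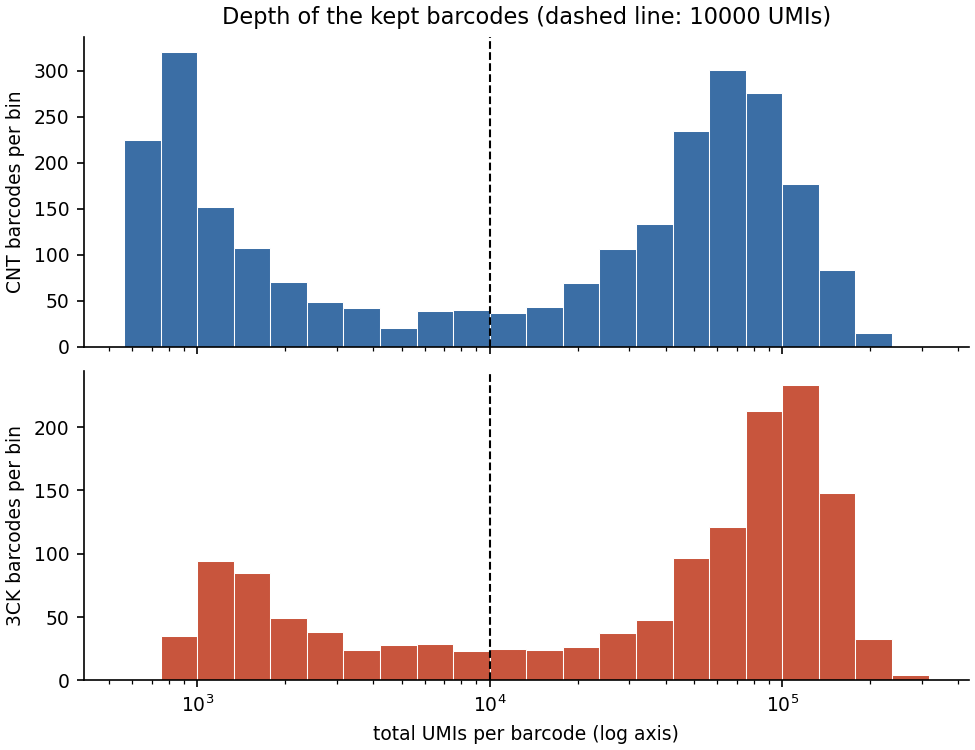
Number of kept barcodes (y axis) by total UMIs per barcode (x axis, log scale) in CNT (top) and 3CK (bottom), with a dashed line at 10000 UMIs. The 829 CNT barcodes under 2000 UMIs stand apart from the deep barcodes, and the range around 10000 UMIs holds few barcodes in both libraries.

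Mitochondrial transcripts took a small share of most shallow barcodes. The median was 0.706% of UMIs in CNT and 0.5% in 3CK, against 2.99% and 2.56% in the deep barcodes. Under 1% was found in 627 CNT shallow barcodes (58.9%) and 237 in 3CK (58.5%), compared with 12.7% and 16.5% of deep barcodes. A share of 5 to 20% was found in 138 and 94 shallow barcodes. Because the rule capped this share at 20%, it is a description, and the cap left out 261 CNT and 147 3CK barcodes that met the gene minimum and lay under the UMI limit.

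The number of different genes at matched depth is a description too, because the gene minimum keeps a barcode of few UMIs only where those UMIs fall on many genes. Each barcode was thinned to 1000 UMIs, drawn without replacement. The median barcode then had 703 genes in CNT and 707 in 3CK, against 639 and 663 in deep barcodes. This left out 546 CNT and 35 3CK barcodes with fewer UMIs. At 500 UMIs, which every member reached, the medians were 398 and 397 against 363 and 376. Before thinning, the shallow barcodes of at least 1000 UMIs had medians of 1103 and 1109 genes.

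The summed composition was not a uniform dilution of the deep barcodes, and it shifted within the shallow range. TTR encodes transthyretin, a secreted carrier of thyroid hormone and retinol made by liver-like epithelium. It took 3.54% of the UMIs of CNT barcodes under 1000 UMIs, 3.09% at 1000 to 2000, 2.25% at 2000 to 5000, 3.20% at 5000 to 10000, 3.11% at 10000 to 20000 and 4.97% at 20000 or more. In the treated library the same bins gave 1.45, 1.16, 1.84, 1.68, 1.59 and 1.52%. The untreated barcodes therefore stood above the treated ones in every bin. For the median barcode the order differed: it was 3.47% in the shallowest CNT bin, 0.742% at 5000 to 10000 UMIs and 2.92% at 20000 or more, and in 3CK the medians were 1.17, 0.874, 0.607, 0.527, 0.463 and 0.576%. Most barcodes of 5000 to 10000 UMIs thus carried little TTR, and a few carried much of it.

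MALAT1, a long non-coding RNA that stays in the nucleus, was unevenly spread as well. It took 0.891, 0.769, 0.849 and 2.35% of the summed UMIs in the 4 shallow CNT bins, 2.93% at 10000 to 20000 UMIs and 0.641% above. In 3CK the values were 0.596, 0.574, 0.724 and 0.876% in the shallow bins, 4.41% at 10000 to 20000 UMIs and 0.773% above. Median barcodes were lower, with 0.659% in the shallowest and 0.106% in the deepest of the shallow CNT bins and 0.407 and 0.0606% in 3CK. The summed share in the bin of 5000 to 10000 UMIs was thus carried by a minority of barcodes.

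The 77 cytosolic ribosomal protein genes, whose mRNAs are short, abundant and cytoplasmic, took a smaller share of shallow than of the deepest barcodes. They held 12.5, 12.5, 15.2 and 14.7% of UMIs in the shallow CNT bins and 16.1% at 20000 UMIs or more. In 3CK they held 9.09, 10.1, 12.0 and 12.9% against 13.4%. The bin just above the limit, at 10000 to 20000 UMIs, had 11.5% in CNT and 10.1% in 3CK. The 13 genes of the mitochondrial genome took 2.03, 1.93, 2.07 and 4.73% in the shallow CNT bins and 4.63, 2.69, 3.23 and 4.07% in 3CK. At 20000 UMIs or more they took 3.17 and 2.94%.

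**Figure D2:**
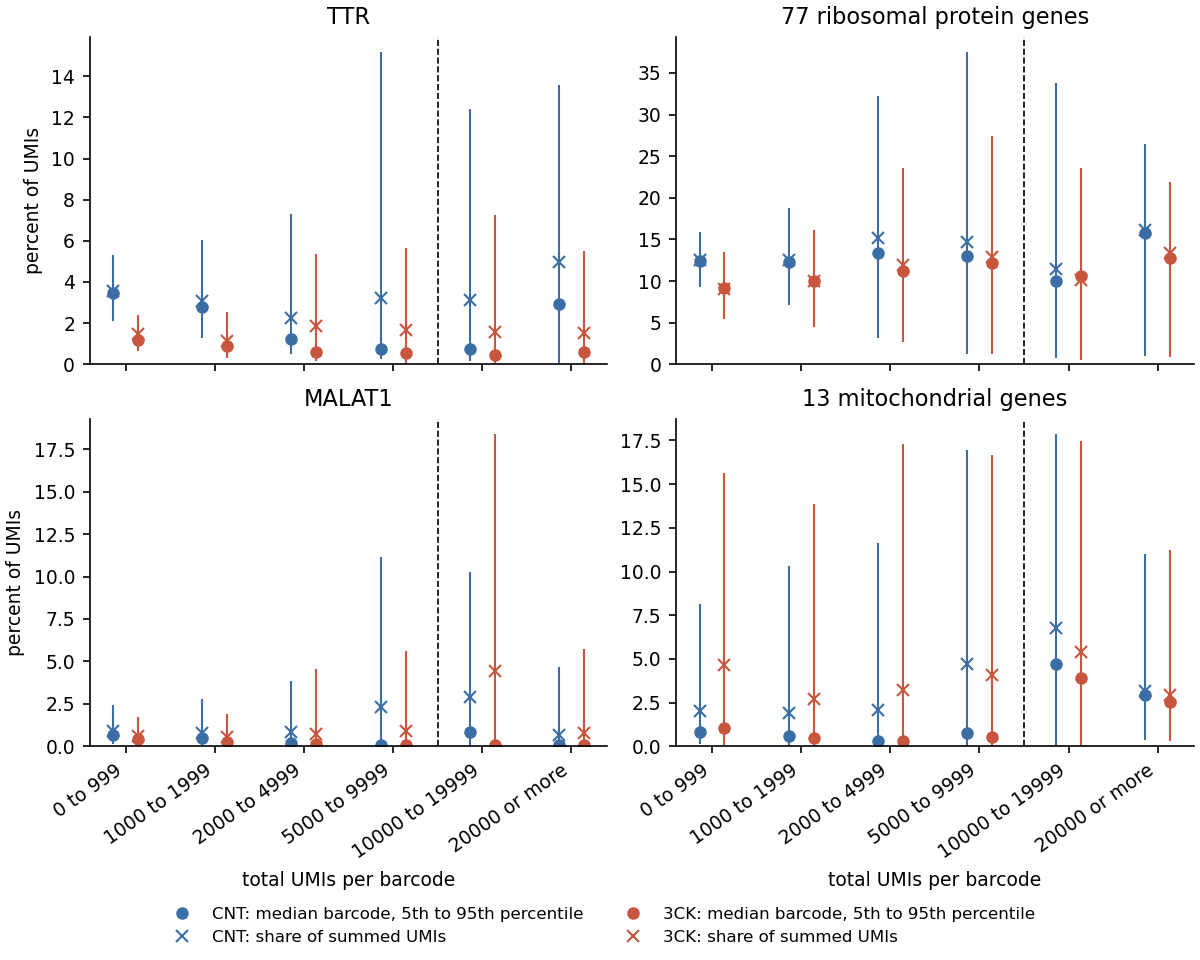
Percent of a barcode's UMIs (y axis) from TTR, the 77 ribosomal protein genes, MALAT1 and the 13 mitochondrial genes in 6 bins of total UMIs (x axis), in CNT and 3CK. Points are the median barcode, lines run from the 5th to the 95th percentile, crosses are the share of the summed UMIs, and the dashed line marks 10000 UMIs. TTR was tight around its median in the shallowest CNT bin (2.11 to 5.31%) and wide at 20000 UMIs or more (0.0651 to 13.6%).

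TTR varied less between the shallowest barcodes than between deeper ones. At 1000 UMIs, TTR was detected in 100% of the 283 CNT barcodes of 1000 to 2000 UMIs, with a mean of 31.5 UMIs and a Fano factor of 9.12 (variance over mean, which is 1 for pure counting). In the 236 CNT barcodes of 2000 to 10000 UMIs the mean was 25.8 UMIs and the Fano factor 53.2. In the 1474 deep barcodes these were 43.4 and 53.8. In 3CK the Fano factor was 6.82 in the 199 barcodes of 1000 to 2000 UMIs, 58.4 in the 171 of 2000 to 10000 and 34.1 in deep barcodes. TTR therefore varied least between the barcodes of the lowest depth, in both libraries. The gene minimum bears on this order, because it removes barcodes of few genes mainly at the lowest depth. At 1000 UMIs the 5th percentile of detected genes was 640 under 2000 UMIs and 409 at 2000 to 10000 in CNT. In 3CK it was 609 and 389. The part of the gene minimum in these Fano factors and in the detection shares below was not tested.

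Detection of TTR at 1000 UMIs was close to complete in the shallow barcodes and lower in the deep ones. It was 99.6% in CNT barcodes of 2000 to 10000 UMIs and 88.7% in deep CNT barcodes, and 98.5, 97.1 and 76.9% in 3CK from the lowest to the deep. In the deep barcodes whose markers were mesenchymal, a lineage of which transthyretin is not a marker, TTR was detected in 68.8% with a mean of 8.01 UMIs in CNT and in 24.0% with a mean of 1.67 in 3CK. The corresponding deep epithelial barcodes had means of 60.8 and 18.7 UMIs. The mean in the shallowest barcodes, 31.5 UMIs in CNT and 11.4 in 3CK, thus lay between those of the deep mesenchymal and the deep epithelial barcodes. The part of free RNA in these values was not tested.

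Other abundant transcripts also varied least in the shallowest CNT barcodes. The Fano factor of APOA1, the main protein of high-density lipoprotein, was 7.71 in barcodes of 1000 to 2000 UMIs, 56.7 at 2000 to 10000 and 19.1 in deep barcodes. For FTL, the ferritin light chain, the values were 2.17, 13.4 and 7.35. For KRT18, a keratin of simple epithelium, they were 3.49, 16.3 and 9.15, and for RPLP1, a ribosomal stalk protein, 1.47, 5.69 and 2.84. MALAT1 had 12.2, 74.9 and 44.6. For all 5 genes the deepest shallow barcodes were the most variable and the shallowest the least, with the same limit from the gene minimum as for TTR. Over the abundant genes the median Fano factor was 1.34, 2.33 and 1.87 in CNT and 1.52, 2.03 and 1.91 in 3CK. Of the 128 abundant genes of the shallowest CNT barcodes, 101 had a value under 2.

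**Figure D3:**
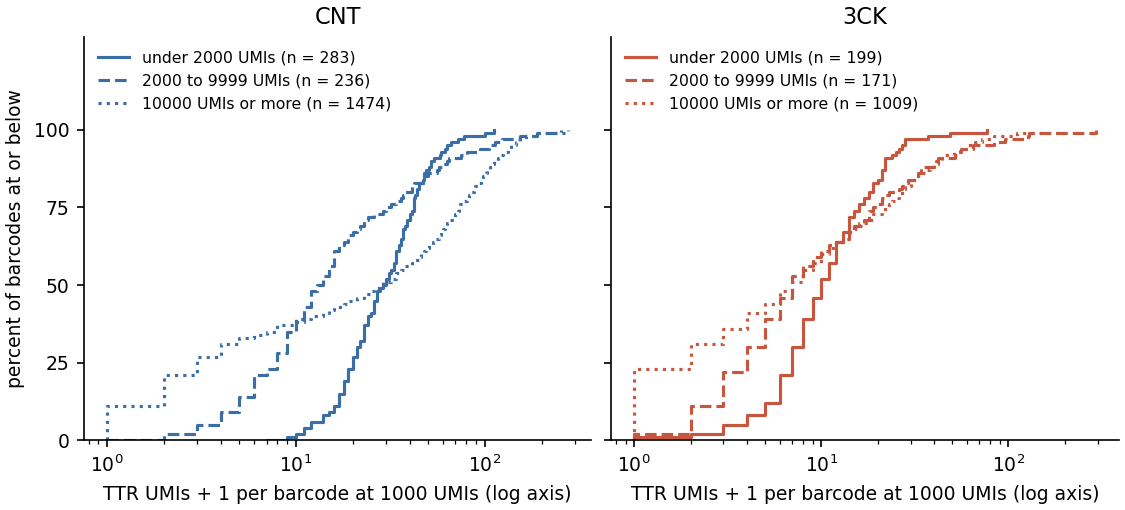
Cumulative percent of barcodes (y axis) by TTR UMIs plus 1 after thinning to 1000 UMIs (x axis, log scale), for shallow barcodes of 1000 to 2000 UMIs, shallow barcodes of 2000 to 10000 UMIs and deep barcodes in CNT and 3CK. The curve of the shallowest barcodes is steep around its mean (31.5 UMIs in CNT, 11.4 in 3CK), and the other curves are spread over a wide range.

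In the shallowest barcodes, epithelial and mesenchymal transcripts met about as often as their separate frequencies predict. EPCAM, an adhesion protein of epithelium, and COL3A1, a fibrillar collagen chain of mesenchyme, were both detected in 30.0% of CNT barcodes of 1000 to 2000 UMIs (24.8 to 35.7%), where the product of their frequencies was 28.4%, a ratio of 1.06. At 2000 to 10000 UMIs both were found in 8.05% against a product of 11.4%, a ratio of 0.71. In deep CNT barcodes it was 2.99% (2.18 to 3.99%) against 11.0%, a ratio of 0.27. The treated library gave ratios of 1.05, 0.92 and 0.25, with both genes in 5.53, 2.92 and 0.793% of barcodes. These rest on only 11, 5 and 8 barcodes. The pair thus met less often than the product in deep barcodes and about as often as the product in the shallowest. For the epithelial marker CDH17 and the collagen gene COL1A1 the ratios were 1.06, 0.46 and 0.22 in CNT. In 3CK they were 0.81, 0 and 0.24, on 3, 0 and 2 barcodes. COL3A1 itself was detected in 46.6, 28.0 and 25.03% of CNT barcodes from the shallowest to the deep, and in 2.99% of the deep barcodes in the epithelial range, a range COL3A1 helped to define. In 3CK it was 9.55, 5.85 and 7.93%.

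A score contrasting 10 epithelial with 13 mesenchymal markers placed fewer shallow than deep CNT barcodes in the epithelial range and more between the ranges. At 1000 UMIs, 37.4% of 519 CNT shallow barcodes lay in the epithelial range (33.2 to 41.7%), 24.1% in the mesenchymal range, 34.3% between them (30.2 to 38.6%), and 4.24% had no marker. In deep CNT barcodes the shares were 59.1, 26.7, 9.57 and 4.61%. In 3CK 74.1% of 370 shallow barcodes lay in the epithelial range (69.3 to 78.4%), 9.46% in the mesenchymal range and 11.1% between, against 71.2, 14.5 and 6.44% of deep barcodes. These ranges are cut from a score and not cell types, and 211 of the 519 CNT shallow barcodes lay within 0.5 unit of a boundary. Thinned to 500 UMIs, the epithelial range held 29.0% in CNT and 62.2% in 3CK.

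Markers of several lineages were present in the summed shallow barcodes at levels near the deep ones. The epithelial markers summed to 2917 CPM (UMI counts scaled to a common total per sum) in CNT and 3493 in 3CK, against 3108 and 3086 in deep barcodes, with all 10 detected. They are general epithelial genes and do not mark colon. The mesenchymal markers summed to 3828 CPM in CNT and 1031 in 3CK (deep 3176 and 918). The 10 hepatic markers, among them TTR, AFP, ALB and APOA1, summed to 53587 CPM in CNT and 32932 in 3CK (deep 77494 and 27415), so they were lower in shallow than in deep barcodes of CNT and higher in 3CK. The enterocyte markers summed to 4932 CPM in CNT and 2389 in 3CK (deep 4930 and 1657). The 7 goblet markers summed to 892 CPM in CNT and 653 in 3CK (deep 1209 and 624), of which ZG16, a lectin of secretory granules, was 794 and 642 CPM. The gel-forming mucin MUC2 and the goblet peptide SPINK4 were at 0 UMIs in both shallow sums, where 3 UMIs correspond to 1.58 CPM in CNT and 2.75 in 3CK. In deep CNT barcodes they were at 0.782 and 0.851 CPM, below what the shallow sums can show.

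The defining leukocyte marker PTPRC, which encodes CD45, had 1 UMI in CNT and 0 in 3CK. The 6 leukocyte markers summed to 52.6 and 110 CPM (deep 86.1 and 130), led by CD68, a lysosomal protein also made outside leukocytes, at 20.0 and 51.4 CPM. The 7 erythroid markers had 5 UMIs in CNT and 0 in 3CK. Cycling markers summed to 216 CPM in CNT and 179 in 3CK, above the deep 118 and 141. Enteroendocrine markers summed to 48.9 and 11.0 CPM against 24.1 and 14.1.

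Few genes differed by more than 2-fold between shallow and deep barcodes of a library. Among 3943 genes with at least 50 CPM in either sum in CNT, 110 were higher in shallow barcodes past 2-fold (2.79% of the genes tested) and 11 lower (0.279%). In 3CK 40 of 3842 were higher (1.04%) and 10 lower (0.26%). A gene that reached 50 CPM in only 1 of the sums had to differ in that direction, so these counts are a description. The direction of these counts rested on the scaling: with TMM factors in place of the total, 20 were higher and 205 lower in CNT and 15 higher and 47 lower in 3CK. The median log2 ratio of all genes tested was 0.20 in CNT and 0.08 in 3CK with the total and -0.23 and -0.18 with TMM, and the ratios below, all scaled by the total, are to be read against the first pair. When the total used for scaling omitted the ribosomal and mitochondrial genes and the 50 with most UMIs, 56 were higher and 25 lower in CNT, and 29 and 12 in 3CK.

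Some of the genes higher in shallow barcodes owed their sum to a single barcode. Of the 110 in CNT, 5 had at least 25% of their shallow UMIs in 1 barcode, and of the 40 in 3CK, 8 did. CGA, the alpha chain of the glycoprotein hormones, was at a log2 ratio of 5.05 in CNT with 1695 of its 1796 UMIs in 1 barcode. CROCC, a protein of the ciliary rootlet, was at 4.35 in 3CK with 139 of 146 UMIs in 1 barcode. The insulin gene INS and the histone gene H3.Y, leading genes of a CNT cluster described below, had 88.6% and 71.6% of their UMIs in 1 barcode.

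In both libraries together, 3268 genes were tested, of which 7 were higher past 2-fold in shallow barcodes of each library and 2 were lower. A gene that reached 50 CPM only in the sum where it was high had to differ, so membership is a description. Of the 7, MTRNR2L12 alone reached 50 CPM in the deep sums of both libraries. PLCG2, a phospholipase C of immune and epithelial signalling, was at 243 CPM in shallow and 26.4 in deep CNT barcodes, and at 703 and 30.1 CPM in 3CK. Its log2 ratio was 3.20 (interval 3.06 to 3.35) in CNT and 4.55 (4.43 to 4.66) in 3CK. It was uneven: 1 barcode held 209 of the 462 UMIs in CNT (45.2%) and another 203 of the 766 in 3CK (26.5%), and 98 and 67 barcodes had any.

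MTRNR2L12 is a nuclear gene nearly identical in sequence to the mitochondrial ribosomal RNA, so reads of either cannot be told apart with certainty. It was at 920 CPM in shallow and 178 in deep CNT barcodes, and at 1371 and 145 in 3CK, log2 ratios of 2.37 (2.30 to 2.44) and 3.24 (3.16 to 3.31). Its level moved with the mitochondrial share. In CNT shallow barcodes of under 1, 1 to 5 and 5 to 20% mitochondrial UMIs it was 127, 824 and 3496 CPM, against 12.2, 87.1 and 728 in deep barcodes. In 3CK it was 165, 1719 and 3651 CPM in shallow and 22.5, 83.4 and 617 in deep barcodes. Within each range of mitochondrial share, the shallow barcodes were thus above the deep ones. MTRNR2L8, another copy, was also among the 7.

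MT-ND6 is the complex I subunit encoded on the light strand of the mitochondrial genome. It was at log2 ratios of 1.33 (1.12 to 1.54) in CNT and 1.79 (1.53 to 2.03) in 3CK. AQP4-AS1, an RNA antisense to the water channel gene AQP4, was at 3.50 (3.26 to 3.74) and 2.74 (2.33 to 3.13), with 174 UMIs in 33 CNT barcodes and 58 UMIs in 15 barcodes of 3CK. The sources used here do not say how strand was used in counting, and its reads cannot be parted from those of its partner. SCN7A, a sodium channel, was at 1.10 (0.91 to 1.29) and 1.09 (0.69 to 1.46). The last of the 7 was AL050309.1. Of the 7, MT-ND6 lies on the mitochondrial genome, whose share the rule capped, and the MTRNR2L copies resemble that genome in sequence.

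The 2 genes lower past 2-fold in both libraries were the acute-phase apolipoproteins SAA1 and SAA2, near-identical copies that the authors' counting could have split. SAA1 was at 74.7 CPM in shallow and 182 in deep CNT barcodes and at 584 and 1361 in 3CK, log2 ratios of -1.29 (-1.53 to -1.05) and -1.22 (-1.34 to -1.11). SAA2 was at 24.2 and 69.1 CPM in CNT and 426 and 947 in 3CK, with ratios of -1.51 (-1.97 to -1.10) and -1.15 (-1.29 to -1.02). Shallow barcodes thus held less serum amyloid transcript than deep ones in the untreated and in the treated library.

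Beyond these, the genes ranked highest in both libraries lay under the 2-fold mark in at least 1 of them. ATRX, a chromatin remodeller, was at 0.99 in CNT and 0.79 in 3CK, AHR, the aryl hydrocarbon receptor, at 0.87 and 0.88, and RPL31, a ribosomal protein, at 0.78 and 0.72. CMPK1, a nucleotide kinase, was at 0.75 and 1.06, ATP13A3, a transport ATPase, at 0.78 and 0.91, the Golgi protein gene GOLGB1 at 0.72 and 0.83, and ENAH, an actin regulator, at 0.68 and 0.81. Among those ranked lowest, ATP6V0B, a subunit of the vacuolar proton pump, was at -0.94 and -0.72, DUSP23, a small phosphatase, at -0.97 and -0.82, TMEM179B at -0.86 and -0.86, and CYBA, the p22 subunit of NADPH oxidases, at -0.78 and -0.68. NENF, POLD4, SELENOM, ZNF593 and TRAPPC5 completed this group.

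The ratio of shallow to deep followed the genomic span of the gene. In CNT the median log2 ratio was -0.33 for genes spanning under 5 kb, -0.13 for 5 to 20 kb, 0.22 for 20 to 100 kb and 0.56 for 100 kb or more. Of the 110 genes higher in CNT shallow barcodes, 84 spanned 100 kb or more, a class of 1094 of the 3939 genes with a known span. In 3CK the medians were -0.25, -0.06, 0.19 and 0.17. The genes of short span were thus lower in shallow barcodes of both libraries. The class of longest span had the highest median in CNT and not in 3CK, a difference that was not tested. The sources used here do not say whether reads in introns were counted, and spliced and unspliced RNA cannot be told apart in these counts.

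Genes under 5 kb had the lowest median in each depth range of the shallow barcodes as well. Under 2000 UMIs the medians from the shortest to the longest span were -0.29, 0.00, 0.38 and 0.49 in CNT and -0.29, 0.05, 0.40 and 0.24 in 3CK. At 2000 to 10000 UMIs they were -0.34, -0.22, 0.09 and 0.63 in CNT and -0.25, -0.10, 0.13 and 0.17 in 3CK. The CNT barcodes of 2000 to 10000 UMIs thus had the widest span of medians of the 4 sets.

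**Figure D4:**
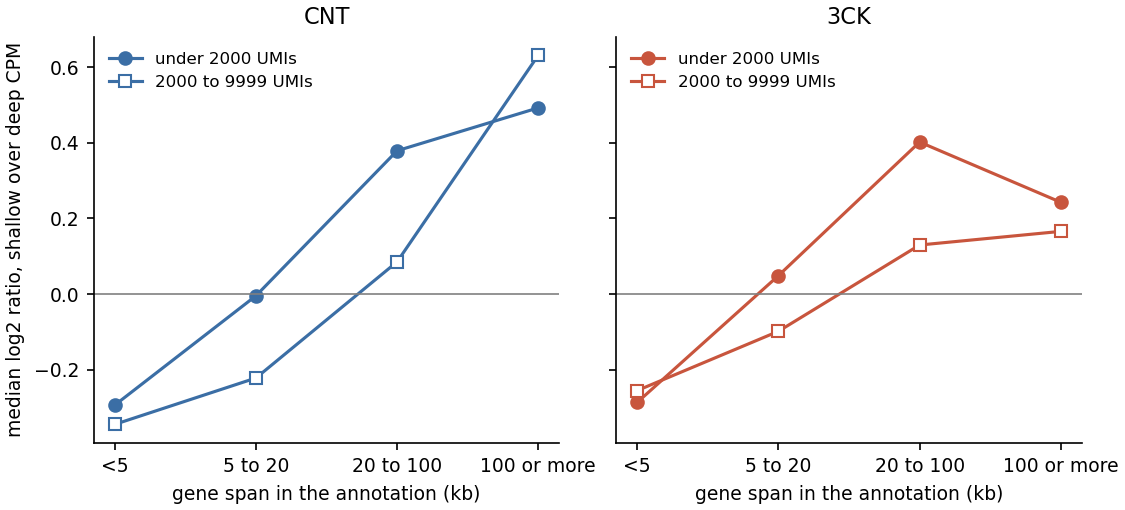
Median log2 ratio of shallow over deep barcodes (y axis) by genomic span of the gene in kb (x axis), for shallow barcodes under 2000 UMIs and of 2000 to 10000 UMIs in CNT and 3CK. Genes under 5 kb lie between -0.34 and -0.25 in the 4 sets, and genes of 100 kb or more between 0.17 and 0.63.

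Grouped by function, the secreted plasma proteins stood apart between the libraries. This list of 17 liver-type secreted proteins had 15 members tested. In CNT 11 of the 15 were below 0, with a median log2 ratio of -0.20 and 0 past 2-fold. In 3CK 15 of 15 were above 0, with a median of 0.64 and 3 past 2-fold, against medians of 0.20 and 0.08 for all genes tested. Of all genes tested, 1414 of 3943 were below 0 in CNT and 2205 of 3842 above 0 in 3CK. ALB, albumin, was at 1499 CPM in shallow and 1103 in deep CNT barcodes, a log2 ratio of 0.44, and at 776 and 335 in 3CK, a ratio of 1.21. APOB, the structural protein of low-density lipoprotein, was at 0.20 and 1.03. RBP4, the retinol carrier, was at -0.74 and 0.17, and SERPINA1, the elastase inhibitor, at -0.43 and 0.64, with 29.8% of its 981 3CK UMIs in 1 barcode. TTR was at 30306 CPM in shallow and 49376 in deep CNT barcodes, a ratio of -0.70 (-0.72 to -0.69), and at 15867 and 15229 in 3CK, 0.06 (0.04 to 0.08). The CNT median was 0.083 when only barcodes under 2000 UMIs were summed, so its sign rests on the barcodes of 2000 to 10000 UMIs. With at least 1000 genes the 3CK median was 0.00.

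The nuclear-retained RNAs were higher in CNT shallow barcodes when UMIs were summed, and not when barcodes had equal weight. Of 12 nuclear-retained RNAs, 9 were tested in CNT, of which 8 were above 0 and 1 past 2-fold. Of all 3943 genes tested in CNT, 2529 were above 0 and 2.79% were higher past 2-fold, with a median of 0.20. The median of the nuclear-retained RNAs was 0.73 with summed UMIs and -0.10 with equal weight per barcode. In 3CK 6 were tested, 3 above 0, beside 2205 of all 3842 genes tested. The 3CK median of the list was 0.06, and -0.20 with TMM factors. MALAT1 was at 13447 CPM in shallow and 6769 in deep CNT barcodes, 0.99 (0.97 to 1.01), and at 7466 and 8071 in 3CK, -0.11 (-0.14 to -0.08). NEAT1, the scaffold of paraspeckles, was at 0.73 and 0.37, with 382 of the CNT and 110 of the 3CK shallow barcodes holding any. Outside this list, H19, an imprinted non-coding RNA abundant in fetal endoderm and mesenchyme, was at 1.16 and 0.45.

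The cytosolic ribosomal proteins had medians of -0.24 in CNT and -0.20 in 3CK, with 59 of 77 below 0 in each and 0 past 2-fold. The 27 nuclear-encoded subunits of the respiratory chain had medians of -0.25 and -0.17, with 24 and 25 below 0. Of all genes tested, 1414 of 3943 in CNT and 1637 of 3842 in 3CK were below 0. Transcripts of the mitochondrial genome had a median of 0.23 in CNT, with 7 of 13 above 0, beside 0.20 and 2529 of 3943 for all genes tested. In 3CK the median was 0.43, with 12 of 13 above 0, beside 0.08 and 2205 of 3842. These values moved with other choices: the CNT median was -0.21 with TMM factors and -0.75 with equal weight per barcode, and with at most 10% mitochondrial UMIs the medians were -0.51 and -0.37. MT-ND6 in both libraries and MT-ATP8, a subunit of ATP synthase, in 3CK were past 2-fold. MT-CO1, a cytochrome oxidase subunit, was at -0.36 and 0.08.

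The lists of stress showed small differences. Genes of dissociation stress, such as the immediate early factors, had medians of -0.14 in CNT and 0.14 in 3CK over 11 tested, and genes of the unfolded protein response had medians of -0.12 over 10 and 0.10 over 11, with 0 past 2-fold. Apoptosis genes had medians of 0.19 over 4 and 0.08 over 13. Of these, 1 was higher past 2-fold in CNT, beside 2.79% of all genes tested, and 0 in 3CK. Matrix genes had medians of 0.19 over 16 and 0.02 over 12.

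The shallow barcodes of 3CK carried the transcripts of the cytokine response at ratios near those of deep barcodes. Among 4314 genes with at least 50 CPM in either shallow sum, 348 were higher in 3CK past 2-fold (8.07% of the genes tested) and 358 lower (8.3%). In deep barcodes 334 of 3755 were higher (8.89%) and 215 lower (5.73%). The 26 genes of the IFN-γ response list together held 694 UMIs in CNT shallow barcodes (365 CPM) and 10559 in 3CK (9691 CPM), and 336 and 10418 CPM in deep barcodes. Of the 26 genes, 24 reached 50 CPM in the 3CK shallow sum and 2 in the CNT sum. A list member that reaches the minimum only where it is high had to differ, so the members that passed are not counted as support. Without the minimum, the median log2 ratio of the 26 was 5.22, members at 0 in CNT taken at their bound, and 5.12 in deep barcodes. All 7 MHC class I genes, which load and present peptides and of which the HLA genes are similar enough to split reads, were higher past 2-fold, with a median of 3.22 against 3.23 in deep barcodes. The 25 NF-κB targets summed to 751 CPM in CNT and 8644 in 3CK shallow barcodes, 20 reaching 50 CPM in 3CK and 4 in CNT, and their median without the minimum was 3.19 (deep 3.39).

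The CXCR3 ligands, IDO1 and several other IFN-γ targets were at or near 0 in CNT shallow barcodes. CXCL10, which attracts activated T cells, had 1 UMI over all CNT shallow barcodes together. It had 1270 in 3CK, where 272 of the 405 barcodes held it. The log2 ratio was 11.11, with an interval of 8.63 to 16.42 set by the single UMI (deep 11.68). IDO1 had 0 and 666 UMIs, a log2 ratio of at least 8.60 with the 0 set to a floor of 3 UMIs in the whole sum. CXCL11 and CXCL9, the other ligands of the receptor CXCR3, had 0 UMIs in CNT and 379 and 258 in 3CK, at least 7.78 and 7.23, and 1 barcode held 28.3% of the CXCL9 UMIs. GBP5, a guanylate-binding protein of cell-intrinsic defence, had 3 and 655 UMIs, 8.57 (7.02 to 10.85). BATF2, an interferon-induced factor, had 1 and 129 UMIs, 7.81 (5.31 to 13.13), and CTSS, the lysosomal protease cathepsin S, 4 and 276, 6.91 (5.54 to 8.80).

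Transcripts of antigen presentation and of IFN-γ signalling were higher in 3CK. B2M encodes the light chain of MHC class I. Its sums were 3277 UMIs for CNT and 12469 for 3CK, and the log2 ratio was 2.73 (2.67 to 2.79) against 2.70 in deep barcodes. HLA-F, a non-classical class I gene, had 7 and 372 UMIs, 6.53 (5.48 to 7.86). TAPBP, the tapasin of the peptide-loading complex, was at 2.31 (1.97 to 2.66) and 2.20. TNFSF10, the death ligand TRAIL, was at 5.14 against 5.23. SOCS1, an inhibitor of IFN-γ receptor signalling, was at 1.44 (0.88 to 2.01) against 2.26.

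Other genes ranged from a log2 ratio of 7.86 down to 0.20 in shallow barcodes. PIGR, which carries immunoglobulins across epithelium, had 1 and 133 UMIs, 7.86 (5.35 to 13.17). DEFB4A, a beta-defensin, had 1 and 115 UMIs, 7.65 (5.14 to 12.96). LCN2, an iron-sequestering lipocalin, had 7 and 621 UMIs, 7.27 (6.22 to 8.59). ICAM1, an adhesion molecule, was at 5.44 (4.84 to 6.11), SAA1 at 2.97 and IL32, a cytokine of epithelium and lymphocytes, at 3.98 (3.81 to 4.16). NFKB1, a subunit of NF-κB itself, was at 0.20 (-0.31 to 0.70).

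UMIs of the IFN-γ list were also counted per barcode. At 1000 UMIs the IFN-γ list gave a median of 0 UMIs per CNT shallow barcode, with a maximum of 4, and a median of 9 per 3CK shallow barcode, with a range of 0 to 52 and a median of 8 in deep barcodes. Above the 99th percentile of CNT shallow barcodes, 3 UMIs, lay 323 of the 370 3CK shallow barcodes (87.3%, 83.5 to 90.5). The share was 93.5% under 2000 UMIs and 80.1% at 2000 to 10000. In deep barcodes 91.2% of 1009 (89.3 to 92.9%) lay above the CNT percentile of 2 UMIs. At 500 UMIs, with all 405 shallow barcodes, the shares were 73.6% and 72.0%. Free RNA in the suspension can add such UMIs to any barcode, and its part in these shares was not tested.

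CXCL10 was detected at 1000 UMIs in 48.9% of the 370 3CK shallow barcodes (43.7 to 54.1%) and in 0 of 519 in CNT, which allows a share of barcodes with a UMI of up to 0.578% (3 counts of the total). It was found in 56.8% at 1000 to 2000 UMIs, 39.8% at 2000 to 10000 and 38.5% of deep 3CK barcodes. B2M was found in 100, 96.5 and 95.1%, and in 70.7% of CNT shallow barcodes. Treated barcodes of the lowest depth thus carried these transcripts more often than deeper ones at equal numbers of UMIs. TTR was likewise detected in 98.5, 97.1 and 76.9% of 3CK barcodes in the same 3 sets. The part of free RNA in these shares was not tested.

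The smallest ratios of 3CK over CNT in shallow barcodes belonged to genes of different kinds. CUBN, the cubilin receptor of absorptive epithelium, was at a log2 ratio of -4.30 (-5.45 to -3.36), GHR, the growth hormone receptor, at -3.51 (-4.26 to -2.85), and GSTA2, a glutathione transferase, at -2.90 (-3.47 to -2.39). H19 had 3481 and 255 UMIs, -2.97 (-3.16 to -2.78). CGA was at -6.20, which rests on the CNT barcode with 1695 of its 1796 UMIs, and under 2000 UMIs it was at 1.01. FAM13A, the membrane protein gene FLRT2 and AC019117.1 were at -2.97, -2.86 and -3.30.

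Of the extracellular matrix list, 12 of 15 tested genes were lower past 2-fold, with a median of -1.45, beside 8.3% of all genes lower. In deep barcodes it was 11 of 15, with a median of -1.27, beside 5.73%. The 15 passed the minimum in the CNT sum and 12 of them also in 3CK. Over all 16 members, 13 were lower past 2-fold and the median was -1.42. COL1A1, a chain of type I collagen, had 1571 and 120 UMIs, -2.91 (-3.19 to -2.64). COL3A1 had 1962 and 221, -2.35 (-2.56 to -2.15), with 33.0% of the 3CK UMIs in 1 barcode. The share of shallow barcodes in the mesenchymal range was 24.1% in CNT and 9.46% in 3CK, so fewer mesenchymal barcodes and less matrix RNA per barcode cannot be told apart in these sums.

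**Figure D5:**
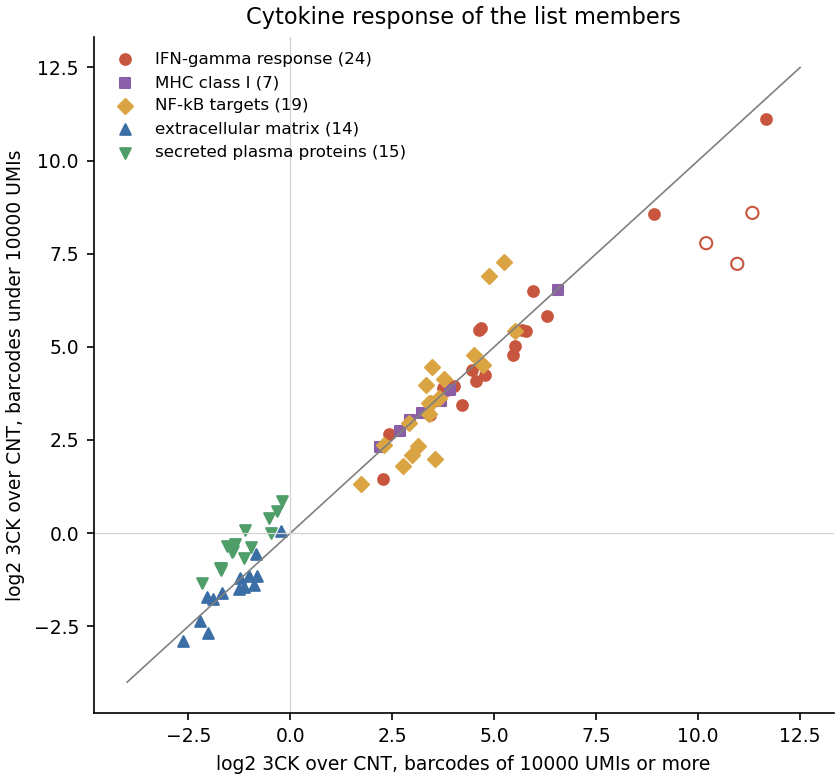
Log2 ratio of 3CK over CNT for members of the gene lists in shallow barcodes (y axis) against deep barcodes (x axis), with the line of equal values. Open symbols are lower bounds (CXCL9, CXCL11, IDO1). Members of the IFN-γ, MHC class I and NF-κB lists lie on both sides of the line, with median differences of -0.24, -0.01 and 0.02. Single members such as LCN2 (7.27 in shallow, 5.24 in deep barcodes) lie further off. The secreted plasma proteins lie above the line.

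The response of secreted plasma proteins was smaller in the shallow barcodes. Their median log2 ratio of 3CK over CNT was -0.36 in shallow barcodes, with 1 of 15 lower past 2-fold beside 8.3% of all genes, and -1.36 in deep barcodes, with 10 of 15 lower beside 5.73%. The shallow minus the deep ratio was above 0 for 15 of 15, with a median of 0.92 and 15 counting intervals above 0, and 4 members were apart by 1 log2 unit or more. Over all 4309 genes with both ratios, 37 were higher by that much (0.859%) and 114 lower (2.65%), with a median of -0.05. TTR was at -0.93 (-0.96 to -0.91) in shallow and -1.70 in deep barcodes, a difference of 0.76 (0.74 to 0.79). ALB was at -0.95 and -1.72, and APOB at -1.34 and -2.17. RBP4 was at 0.58 in shallow and -0.33 in deep barcodes. The share of barcodes in the epithelial range was 37.4% in CNT and 74.1% in 3CK among shallow barcodes and 59.1% and 71.2% among deep ones, and its part in these ratios was not tested. Without replicates the differences could not be tested between conditions, and in shallow barcodes under 2000 UMIs the list's median was -0.73.

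The IFN-γ, MHC class I and NF-κB lists had median differences of -0.24, -0.01 and 0.02 between shallow and deep response. Single genes lay further apart. LCN2 was at 7.27 in shallow and 5.24 in deep barcodes, a difference of 2.03 (0.96 to 3.11), with 3.68 CPM in shallow and 15.2 in deep CNT barcodes. CXCL8, which attracts neutrophils, had 5 and 344 UMIs in the shallow sums and a difference of 2.04 (0.76 to 3.31). DEFB1, a beta-defensin, was at 1.85 (1.09 to 2.61) with 35.1% of its 3CK UMIs in 1 barcode. GSTA2 was at 1.81 (1.28 to 2.34), which is a smaller fall in 3CK: -2.90 in shallow and -4.72 in deep barcodes. CROCC, at 3.74, rests on the 1 barcode described above. For LCN2, CXCL8 and DEFB1 the CNT shallow sum was below the CNT deep one, and the 3CK sums were closer.

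Other genes had a lower log2 ratio of 3CK over CNT in shallow than in deep barcodes. EDA, the ectodysplasin ligand, differed by -1.94 (-2.41 to -1.48), with -1.53 in shallow and 0.41 in deep barcodes. MACROD2, an ADP-ribose hydrolase, differed by -1.78 (-2.44 to -1.13), with -2.41 and -0.62. ARL15, a small GTPase, differed by -1.59 (-2.03 to -1.16), with -2.07 and -0.48. For MACROD2 and ARL15 the fall in 3CK was thus larger in shallow barcodes. AC083837.1 differed by -2.35, with 15 of its 27 CNT shallow UMIs in 1 barcode. CGA differed by -2.07 and rests on the CNT barcode with 1695 of its 1796 UMIs. EDA was at 119 CPM in shallow and 44.7 in deep CNT barcodes and at 41.3 and 59.3 in 3CK. Genes spanning 100 kb or more had a median ratio of 3CK over CNT of -0.39 in shallow and 0.02 in deep barcodes, and they made up 220 of the 358 genes lower in shallow 3CK and 1164 of the 4310 genes tested that have a span. MALAT1 was at -0.85 in shallow and 0.25 in deep barcodes. The nuclear-retained list was below its deep ratio for 8 of 9 members, with a median difference of -0.37. Of all 4309 genes with both ratios, 2381 were below and 1928 above, with a median of -0.05. The mitochondrial genome was above its deep ratio for 13 of 13, with 0.35. That is a description only, because the rule caps the mitochondrial share.

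Clustering of the 1470 shallow barcodes gave 4 clusters, 2 of them nearly confined to a library. Clusters are given by number and their leading genes as a description. Cluster 0 held 823 CNT and 2 3CK barcodes with a median of 903 UMIs, and cluster 1 held 12 CNT and 321 3CK barcodes with a median of 1650 UMIs, led by MT1M and MT1B, which bind metal ions, and by LCN2 and DEFB1. MT1B was found in 6 of the 333 barcodes of cluster 1, with 70.1% of its UMIs in 1 barcode. MT1M, LCN2 and DEFB1 were found in 93, 113 and 49. Cluster 0 was led by CGA, INS and H3.Y, each from mostly 1 barcode, and by FABP2, an intestinal fatty acid-binding protein, and TSPAN1. Cluster 2, with 168 CNT and 44 3CK barcodes, was led by IL1B, FDCSP, CCL2, EGFL6 and LGALS1, with 21.8% of UMIs from ribosomal protein genes. IL1B was found in 17 of its 212 barcodes and FDCSP in 13, with 26.8% and 42.2% of their UMIs in 1 barcode. CCL2, EGFL6 and LGALS1 were found in 44, 32 and 177. Cluster 3, with 62 CNT and 38 3CK barcodes and a median of 4639.5 UMIs, was led by AQP4-AS1 and CROCC, with 4.82% of UMIs from MALAT1 and 2.87% from ribosomal protein genes. Of its CROCC UMIs, 92.7% were in 1 barcode.

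Both mixed clusters showed the cytokine response. The summed IFN-γ list was at a log2 ratio of 3CK over CNT of 4.42 (4.22 to 4.62) in cluster 2 and 4.37 (4.03 to 4.74) in cluster 3. The matrix list was at -0.88 and -0.68, and the secreted plasma proteins at -1.82 and -1.18. In cluster 1, which had only 12 CNT barcodes, the IFN-γ list was at 4.30 (3.66 to 5.03). Its matrix list was at -0.30 (-0.64 to 0.06) and its secreted plasma proteins at -0.49 (-0.55 to -0.43). MHC class I was at 2.69 (2.60 to 2.78) in cluster 2 and 3.30 (3.08 to 3.52) in cluster 3, and the NF-κB targets at 3.49 (3.33 to 3.65) and 2.85. These intervals cover counting error only, and a difference between the clusters was not tested. A larger ratio was not a higher level. MHC class I summed to 23381 CPM in cluster 2 and 6310 in cluster 3 of 3CK, and to 3628 and 641 CPM in CNT.

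The values just inside and just outside the UMI limit rested on 13 and 13 barcodes in CNT and 7 and 12 in 3CK. At 9000 to 10000 and 10000 to 11000 UMIs, TTR took 2.36 and 4.39% of UMIs in CNT and 0.636 and 2.50% in 3CK, and MALAT1 took 1.92 and 0.549% in CNT and 0.602 and 5.26% in 3CK. The log-scale profile of the summed barcodes under 2000 UMIs correlated with the deep profile at a Pearson r of 0.94 over 4047 genes in CNT and 0.90 over 4192 in 3CK, and that of 2000 to 10000 UMIs at 0.90 over 3936 and 0.95 over 3809. These correlations are across genes within a library and describe likeness only.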

How the data were processed

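The authors deposited a raw UMI count matrix per library. Per the file headers, the matrices were made with Cell Ranger 7.1.0. The genome was GRCh38 per the submitters' processing notes. The sources used here name neither the annotation nor the use of intronic reads. Counts of 36601 genes were used as deposited, 20 of them with a repeated symbol. Barcodes were kept with at least 500 genes and at most 20% mitochondrial UMIs, which removed 412 CNT and 52 3CK barcodes for genes and 306 and 175 for mitochondrial share alone. No doublets were removed. As an alternative the highest Scrublet scores were removed at 0.8% per 1000 barcodes, 52 CNT and 16 3CK barcodes, of which 36 and 2 were shallow.

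UMIs were summed per library and depth group and scaled by the total to CPM. A gene was compared when its higher sum reached 50 CPM, and past 2-fold means a log2 ratio of at least 1. A sum of 0 was set to 3 UMIs (1.58 CPM in CNT and 2.75 in 3CK shallow barcodes), which makes the ratio a bound. Intervals are at 95% from exact binomial shares and cover counting error only, since PCR and cell sampling are not in them and there is 1 library per group.

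Thinned values used 1000 UMIs per barcode without replacement, with 500 and 2000 as alternatives. Clusters came from log values at 10000 UMIs per barcode, scanpy 1.11.5 and igraph 0.11.9. Mitochondrial and ribosomal protein genes and the response lists, LCN2 among them, were left out of the clustering. Leading genes were ranked over all genes by fold over the other shallow barcodes of the same library. Other tools were Python 3.11.15, numpy 2.4.6, scipy 1.17.1, pandas 2.3.3 and edgeR 4.0.16, the last for TMM factors only. Gene span came from the GENCODE annotation of GRCh38. The ratio and interval steps were tested on simulated data.

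The members and the 13 gene lists (292 genes) and 13 marker lists (98 genes) were chosen with earlier results of these data known, and the membership of the ribosomal list was corrected after its values had been seen. Genes were named by rule. For shallow against deep these were the 10 largest and 10 smallest ratios with at least 100 CPM and the same sign in both libraries. For 3CK against CNT in shallow barcodes they were the 10 largest and 10 smallest. For the difference of the responses they were the 5 largest and 5 smallest. Of each list the member with the highest level, the largest and the smallest ratio were taken, with the mitochondrial genes, the markers and the 5 leading genes of each cluster. Other genes, among them NEAT1, RBP4, SERPINA1, APOB, ICAM1, FTL, KRT18 and AL050309.1, were chosen after their values were seen. A gene that the rule selected is not reported here. Alternatives covered the UMI, gene and mitochondrial limits, doublets, scaling, weighting, the CPM minimum, thinning depth and clustering.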

Additional observations from a re-analysis of the deposited data

Results flagged for a closer look

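The secreted plasma protein list differed in sign between the libraries. Its median log2 ratio of shallow over deep barcodes was -0.20 in CNT and 0.64 in 3CK, with 11 of 15 members below 0 in CNT and 15 of 15 above 0 in 3CK. With 1 library per group the difference was not tested.

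A response also appeared in barcodes that the comparisons leave out. In 3CK barcodes above the mitochondrial limit and under the UMI limit, 199 barcodes, the IFN-γ response list summed to 5721 CPM (5511 to 5937). In the 599 such CNT barcodes it summed to 181 CPM (156 to 209), where 3 UMIs correspond to 2.90 CPM in CNT and 6.17 in 3CK. Both sets include barcodes under the gene minimum, which 147 of the 3CK and 261 of the CNT barcodes met.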

How the results depend on the processing

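No paired analysis was possible because the labels give no replicate numbers and there is 1 library per group, so no replicate was left out either. Alternatives marked as added (only barcodes under 2000 UMIs, or without the barcode richest in CGA or CROCC) were chosen after seeing the data. The main value stands in brackets.

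The shallow share of kept barcodes in CNT [41.9%] was 38.6% with a limit of 5000 UMIs, 46.2% with 20000, 17.2% with at least 1000 genes and 46.6% with no mitochondrial limit. In 3CK [28.6%] these were 23.8, 32.9, 17.8 and 34.7%. Genes higher in CNT shallow than deep barcodes [110] numbered 64 with a limit of 5000 UMIs, 578 with 20000, 258 with at least 1000 genes, 167 with at most 10% mitochondrial UMIs, 59 with no such limit, 20 with TMM, 56 with the total that left out the most abundant genes, 24 with equal weight, 10314 with no CPM minimum and 32 at 100 CPM. Those lower [11] numbered 17 with 20000 UMIs, 36 with at least 1000 genes, 17 with at most 10%, 45 with no mitochondrial limit, 205 with TMM, 25 with the reduced total, 519 with no CPM minimum, 4 at 100 CPM and 19 under 2000 UMIs. In 3CK those higher [40] numbered 109 with 5000 UMIs, 72 with 20000, 26 with no mitochondrial limit, 15 with TMM, 64 with equal weight, 10634 with no CPM minimum, 16 at 100 CPM and 296 under 2000 UMIs. Those lower [10] numbered 20 with 20000 UMIs, 31 with no mitochondrial limit, 47 with TMM and with equal weight alike, 674 with no CPM minimum, 5 at 100 CPM and 78 under 2000 UMIs.

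The CNT median of the mitochondrial genome [0.23] was -0.40 with 5000 UMIs, -0.51 with at most 10%, -0.21 with TMM, -0.75 with equal weight and -0.49 under 2000 UMIs, and in 3CK [0.43] it was -0.37 with at most 10%. The nuclear-retained median was -0.10 with equal weight in CNT [0.73], and in 3CK [0.06] it was -0.24 with no mitochondrial limit, -0.20 with TMM, -0.44 with equal weight and -0.12 under 2000 UMIs. The secreted plasma median in CNT [-0.20] was 0.083 under 2000 UMIs. For 3CK against CNT in shallow barcodes, no CPM minimum gave 1309 higher [348] and 3253 lower [358], and 100 CPM gave 198 and 150. CGA [-6.20] was at 0.81 with 5000 UMIs and 1.01 under 2000. Genes with a ratio of 3CK over CNT lower in shallow than in deep barcodes by 1 log2 unit or more [114] numbered 74 with 20000 UMIs. The CNT epithelial range [37.4%] held 29.0% at 500 UMIs, 44.1% at 2000 and 21.8% at a boundary of 1.5, and the 3CK one [74.1%] 62.2% at 500 UMIs and 58.4% at 1.5. The 3CK barcodes above the CNT level of the IFN-γ list [87.3%] were 73.6% at 500 UMIs and 91.8% at 2000. Resolution 1 gave 11 clusters [4]. The cause of these shifts was not tested. Of the other values, 781 of single genes or lists kept direction and size and 238 moved. Depth limits single barcodes: at 1000 UMIs a gene of low level is seen in few of them.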
